A study of Drosophila melanogaster with 4 samples.

Results

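The H3K9ac clusters of chromosome 4, of the pericentromeric and Y heterochromatin scaffolds, of the unplaced sequence U and of the centromere-proximal ends of 2L and 3L were examined in adult Drosophila heads. A cluster is a region that the authors called as enriched in the ChIP library over its input. The members were all enriched regions of the whole-series list that lay on chromosome 4, on U or on a scaffold whose name ends in Het, or that started at or beyond position 21011545 on 2L or 22543558 on 3L, which leaves the last 2 Mb of each arm. There were 297 such clusters of 12182 in the list, with 77 on chromosome 4, 52 on the 6 Het scaffolds, 18 on U, 79 in the last 2 Mb of 2L and 71 in the last 2 Mb of 3L. At the same positions the list of ChIP replicate 1 held 247 of its 9104 clusters and that of ChIP replicate 2 held 252 of 10049. The study had 2 H3K9ac ChIP libraries and 2 input libraries, all from head nuclei of wild-type Oregon-R flies labelled as mixed adults and raised in population cages, with heads separated by sieving. ChIP clusters were called against the input of the same replicate number, and no genotype or treatment was compared. A head holds brain, eyes, glia and fat body, among other tissues, and a cluster present in few cells cannot be told apart from one that is weak in many. Coordinates are those of FlyBase release 5. The read depth of the libraries is unknown, and no release 5 gene annotation was used here, so that clusters are named by position.

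Acetylation of lysine 9 of histone H3 is laid down by histone acetyltransferases around the starts of active genes. In pericentromeric heterochromatin the same lysine mostly carries methyl groups, which bind the protein HP1a, and a given lysine cannot carry both marks at once. Heterochromatin nevertheless holds genes, some of which, such as light on 2L and rolled on 2R, need a heterochromatic surrounding for normal expression. Chromosome 4 is coated by HP1a and by the protein POF along much of its gene-bearing part, and its genes are expressed in that setting. The Het scaffolds are assembled heterochromatin beyond the ends of the arm sequences. U joins scaffolds that could not be placed, so that distances within it do not stand for distances in the genome.

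Clusters were sparse in these sequences, to very different degrees. They covered 13.4% ± 1.14 of chromosome 4 and 1.30% ± 0.00878 of the Het scaffolds (SD, n = 2), against 28.2% ± 1.88 of the large autosome arms. Chromosome 4 had 54.0 clusters per Mb in replicate 1 and 50.3 in replicate 2, against 78.4 and 87.2 on the arms, which here are 2R, 3R and, up to their last 2 Mb, 2L and 3L. The Het scaffolds, 9.28 Mb in all, had 4.85 and 5.17 per Mb, and U had 1.49 and 1.09. The last 2 Mb of 2L held 30.0 and 33.5 clusters per Mb and that of 3L 27.0 and 29.0. All 5 classes therefore lay below the arms in both replicates, by more than the replicates differed. The order of the classes was the same in each replicate. Among the scaffolds XHet stood highest, with 19.6 clusters per Mb in each replicate, and 3RHet lowest in replicate 1, with 2.78 per Mb. YHet, with 2 clusters in replicate 1 and 1 in replicate 2, was the lowest in replicate 2.

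The gaps between neighbouring clusters were longer in all 5 classes. The median gap was 76.3 kb in replicate 1 and 83.7 kb in replicate 2 on the Het scaffolds, against 3.90 kb and 3.51 kb on the large autosome arms. On chromosome 4 it was 11.6 kb and 12.2 kb, at the end of 2L 9.10 kb and 10.1 kb, and at the end of 3L 7.12 kb and 5.51 kb. On U it was 343 kb and 419 kb. The ends of 2L and 3L, each taken as a whole, thus had shorter median gaps than chromosome 4, although they held fewer clusters per Mb. Within each end the gaps differed on either side of the drop in cover described below. On 2L the median gap was 20.4 kb and 20.3 kb proximal of it, against 5.59 kb and 2.59 kb distal of it. On 3L it was 42.8 kb and 50.5 kb, against 4.92 kb and 3.92 kb. XHet differed from the other scaffolds, with median gaps of 4.38 kb and 4.50 kb, though it held only 4 clusters in each replicate. The longest gap on the scaffolds ran for 923.8 kb on 2RHet, from 1851214 to 2774987 in replicate 1, and for 923.9 kb in replicate 2. On 3LHet 618.6 kb from 1570593 to 2189143 had no cluster in replicate 1. Clusters at least 20 kb from every other cluster of their list made up 57.8% (26 of 45) and 54.2% (26 of 48) of the clusters on the scaffolds. Over the whole lists this share was 3.04% in replicate 1 and 2.40% in replicate 2. On chromosome 4 it was 8.22% and 8.82%, with 6 such clusters in each replicate.

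Clusters in heterochromatin were of ordinary length. The median length on the Het scaffolds was 2546 bp in replicate 1 and 2381.5 bp in replicate 2, against 2547 bp and 2469 bp on the large autosome arms. On chromosome 4 it was 2518 bp and 2284.5 bp, a spread between replicates that exceeds the distance of either from the arms. The upper quartiles did differ. On the scaffolds 25% of the clusters were longer than 2961 bp and 2844.75 bp, and on chromosome 4 longer than 3063 bp and 2580.75 bp, against 3893.5 bp and 3815.75 bp on the arms. No cluster on chromosome 4, the scaffolds or U reached 10 kb in any of the 3 lists, whereas 220 of 7263 arm clusters did so in replicate 1. The longest were 8277 bp on chromosome 4 and 6577 bp on 3LHet, both in the whole-series list. Clusters on U were the shortest, with medians of 2148 bp and 2080 bp. At the end of 2L clusters reached 13402 bp in replicate 1 and 12969 bp in replicate 2. At the end of 3L the longest had 6580 bp and 8365 bp, near the 5973 bp and 8185 bp of chromosome 4.

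**Figure D1:**
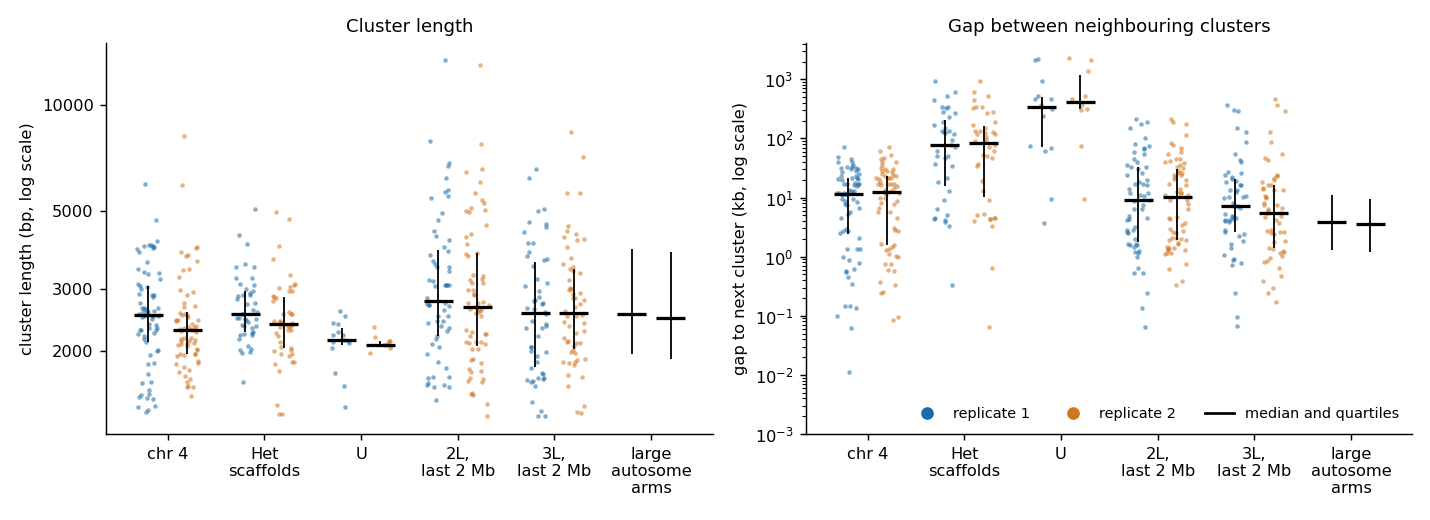
Length of each cluster (left, bp) and gap to the next cluster on the same sequence (right, kb), both on log axes, for 5 heterochromatin-related classes and the large autosome arms in each replicate list. Points are clusters or gaps, thick lines medians and thin lines quartiles, with points left out for the arms. Median lengths lie between 2080 and 2774 bp in all groups, while the median gap runs from 3.51 kb on the arms to 419 kb on U.

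The sparse clusters of heterochromatin scored high. No source used here gives the scale of the authors' score, so only differences within a list were taken. The median score on the Het scaffolds was 1.26 in replicate 1 and 0.974 in replicate 2, against 0.670 and 0.642 on the large autosome arms. The difference was 0.46 ± 0.18 (SD, n = 2). On U the medians were 1.06 and 0.882, at the end of 2L 0.882 and 0.742 and on chromosome 4 0.872 and 0.716, all above the arms in both replicates. At the end of 3L the medians were 0.654 and 0.671, which lie on either side of the arms. The highest score decile of each list holds 10.0% of its clusters by definition. It held 44.4% (20 of 45) and 33.3% (16 of 48) of the scaffold clusters, and 40.0% and 36.4% of those on U. On chromosome 4 it held 8 of 73 and 6 of 68, near that background, and the lowest decile, 10.0% and 9.99% of the lists, held 17 of 73 and 17 of 68.

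The difference was also present among clusters of like length and among isolated clusters. Among clusters of 2000 to under 3500 bp, the median score was 1.27 and 1.06 on the scaffolds, against 0.709 and 0.679 on the arms. Chromosome 4 clusters of that length had 0.939 and 0.793. Among clusters at least 20 kb from any other, the scaffolds had median scores of 1.31 and 1.06, and the arms 0.558 (176 clusters) and 0.578 (138 clusters). The isolated clusters of the arms thus scored below the arm median and those of the scaffolds above the scaffold median. These isolated clusters were not matched for length, with medians of 2465 bp and 2396.5 bp on the scaffolds, against 2020.5 bp and 2047.5 bp on the arms. The isolated clusters at the end of 2L, 12 and 13 in number, had medians of 1.37 and 1.13. The 6 and 5 at the end of 3L had 1.35 and 1.19, but the 4 in the whole-series list had 0.544, against 0.402 on the arms of that list. Spearman's rho of score and length across clusters was 0.64 and 0.68 on the scaffolds, 0.65 and 0.83 on chromosome 4, 0.66 and 0.67 at the end of 2L and 0.76 and 0.73 at the end of 3L, against 0.72 and 0.73 on the arms. It was lower on U, at 0.32 and 0.49 over 15 and 11 clusters. Clusters share their library and are not replicates, so these are descriptions. No source used here says whether reads from repeats were kept, and the part of mappability in cover, spacing or score was not tested.

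**Figure D2:**
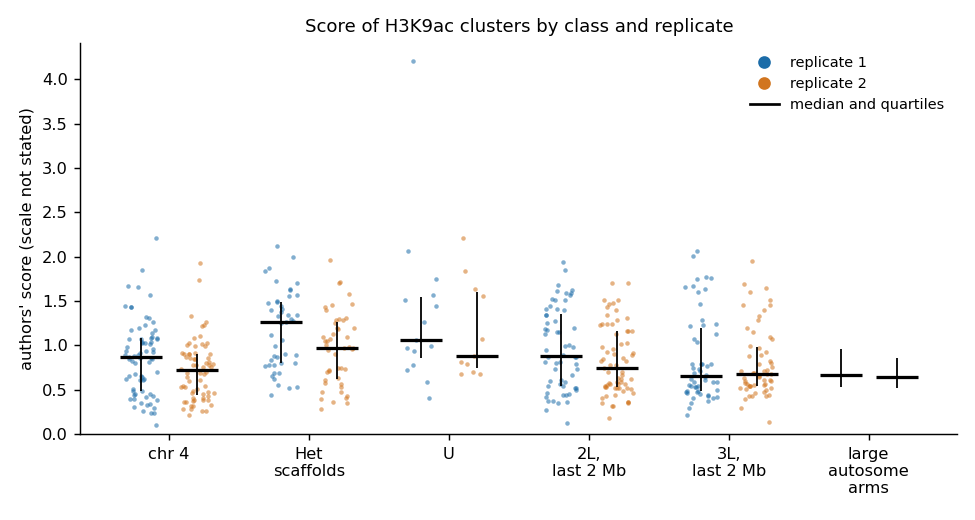
The authors' score (linear axis, scale not stated) of every cluster in the 5 classes, by replicate, with medians (thick lines) and quartiles (thin lines), beside the median and quartiles of the large autosome arms. The median of the Het scaffolds is 1.26 in replicate 1 and 0.974 in replicate 2, above the arms at 0.670 and 0.642, and 1 cluster on U stands apart at 4.21 in replicate 1.

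Support by the replicates was counted for each member as overlap of at least 1 bp with a cluster of each replicate list. The whole-series list covers the same libraries and is no separate evidence for a cluster. On the Het scaffolds 44 of 52 members (84.6%, exact 95% interval 71.9 to 93.1, counting error only) had both, and on chromosome 4 62 of 77 (80.5%, 69.9 to 88.7). Over the whole list 59.4% had both. At the end of 2L 53 of 79 (67.1%, 55.6 to 77.3) had both and at the end of 3L 43 of 71 (60.6%, 48.3 to 72.0). On U the count was 11 of 18 (61.1%, 35.7 to 82.7). The shares of the scaffolds and of chromosome 4 lie above that of the large autosome arms, 60.2% (59.3 to 61.2), and those of the other 3 classes include it. Support went with the score. Within the upper 50% of the list by score, 51 of 51 clusters on chromosome 4 and 39 of 41 on the scaffolds had both replicates, against 97.6% on the arms. Within the lower 50% the counts were 11 of 26 and 5 of 11, against 27.7% on the arms, and their intervals of 23.4 to 63.1 and 16.7 to 76.6 include the arm value. U was lower in the upper 50%, with 11 of 16 (68.8%, 41.3 to 89.0). The 3 members of U found in neither replicate all lay in that upper 50%. All 3 were shorter than 1301 bp, the length of the shortest replicate cluster. Among U members of at least that length, of any score, 73.3% had both.

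No cluster of either replicate overlapped 35 of the 297 members (11.8%), against 21.5% of the whole list. Among these 35, the median length was 1181 bp and the median score 0.344. Of these, 25 were shorter than 1301 bp, and no replicate list held a cluster that short. The highest-scoring of them was 2L 21354012 to 21355014, of 1003 bp, with a score of 2.69, and the next class maximum was U 9711592 to 9712816, of 1225 bp, with 1.05. On the Het scaffolds, chromosome 4 and the end of 3L the highest score without support was 0.433, 0.363 and 0.413.

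The replicate lists were also set against each other. On the scaffolds 44 of 45 replicate 1 clusters (97.8%) had a partner in replicate 2, against 91.1% over the whole list, and 44 of 48 replicate 2 clusters (91.7%) had one in replicate 1, against 81.9%. On chromosome 4 the counts were 65 of 73 (89.0%) and 66 of 68 (97.1%). On U 11 of 15 and 11 of 11 had a partner. At the ends the shares were 91.7% and 83.6% on 2L and 88.9% and 81.0% on 3L. The surplus of unmatched clusters therefore lay in replicate 1 on chromosome 4 and U, and in replicate 2 on the arms, on the scaffolds and at both arm ends. Shared over total covered sequence, the Jaccard index, was 0.870 on the scaffolds and 0.821 on chromosome 4, against 0.753 on the arms. It was 0.781 at the end of 2L, 0.718 on U and 0.680 at the end of 3L.

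**Figure D3:**
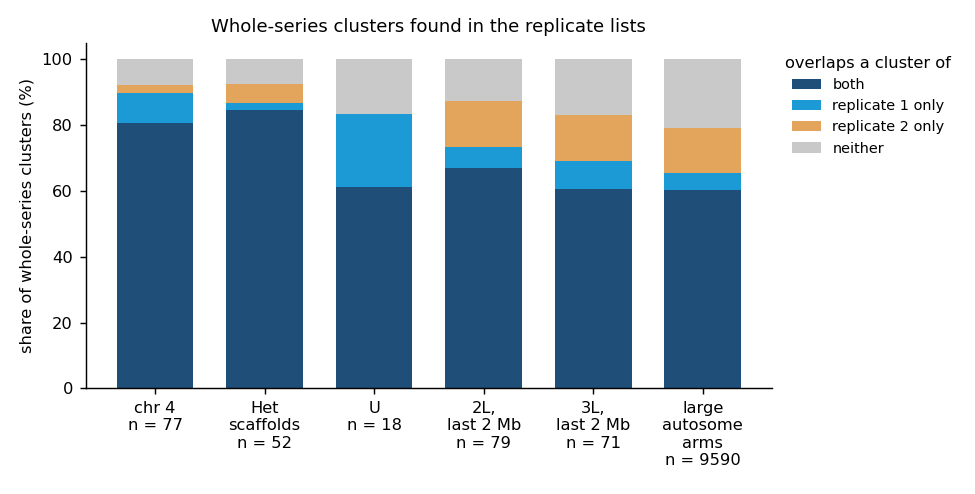
Share of whole-series clusters (percent, stacked to 100) that overlap a cluster of both replicates, of replicate 1 only, of replicate 2 only or of neither, by class, with the number of clusters under each bar. The share with both is 84.6% on the Het scaffolds and 80.5% on chromosome 4, against 60.2% on the large autosome arms.

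Except at the end of 3L taken as a whole, clusters of these classes scored lower in replicate 2 than in replicate 1 more often than arm clusters did. This was read from clusters that overlapped one-to-one in all 3 lists, 198 in the 5 classes and 4671 on the arms. The score was lower in replicate 2 for 39 of 43 pairs on the scaffolds, 48 of 57 on chromosome 4, 9 of 11 on U and 40 of 51 at the end of 2L, against 63.0% of all these pairs. At the end of 3L, taken as a whole, this held for 21 of 36, close to the arms with 62.3%. By mean score of the pair, it held there for 7 of 18 at 0.5 to 1, 2 of 4 at 1 to 1.5 and 8 of 8 at 1.5 to 2. The arms had 55.1%, 80.2% and 78.4%. Pairs were not counted apart on either side of the drop described below. The share of the whole class need not hold for the part of 3L proximal of it. The median difference, replicate 2 minus replicate 1, was -0.20 on the scaffolds and -0.19 on chromosome 4, against -0.04 on the arms. High scores differed more on the arms as well. Among pairs with a mean score of 1 to 1.5, the median difference was -0.24 on the scaffolds (19 pairs) and -0.29 on chromosome 4 (12 pairs), against -0.11 on the arms (1051 pairs). Among pairs with a mean score of 0.5 to 1 it was -0.22 (14 pairs) and -0.18 (35 pairs), against -0.02 (2694 pairs). The same clusters were also shorter in replicate 2, in 38 of 43 pairs on the scaffolds and 51 of 57 on chromosome 4, against 56.3% on the arms. The middle of the clusters moved little, by a median of 43 bp on the scaffolds, 43.5 bp on chromosome 4 and 81 bp on the arms. The 2 replicates give no test of a replicate difference, the lists may differ in scale, and the part of read depth or of the input libraries was not tested.

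**Figure D4:**
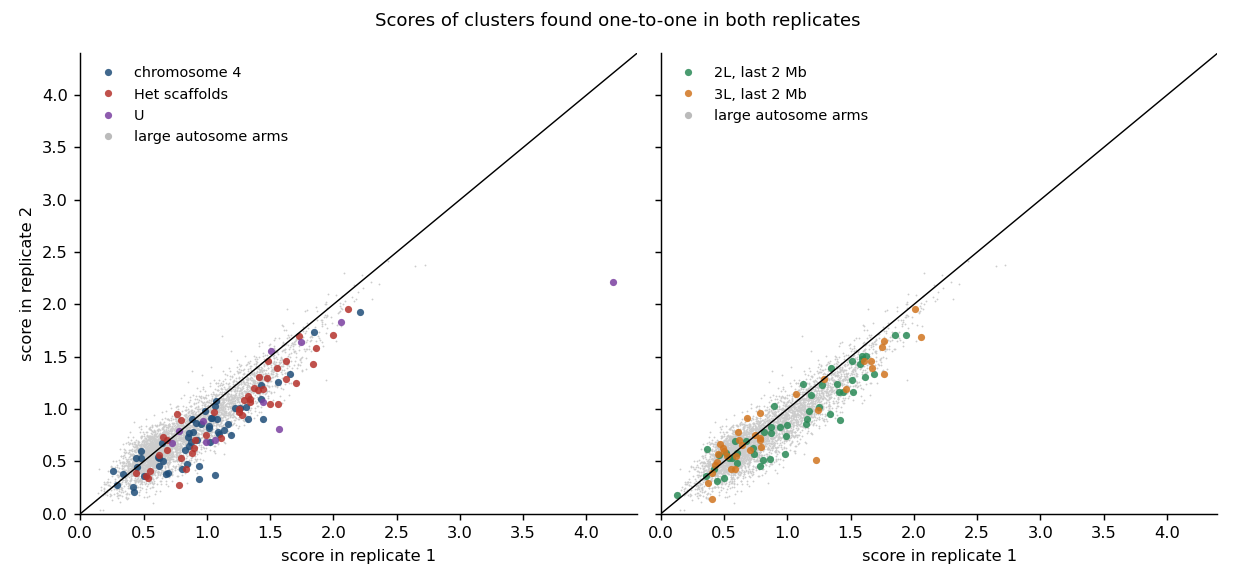
Score in replicate 2 against score in replicate 1 (linear axes, the authors' units) for clusters found one-to-one in all 3 lists, with chromosome 4, the Het scaffolds and U on the left, the ends of 2L and 3L on the right, the large autosome arms in grey and the line of equal scores in black. On the left 39 of 43 scaffold pairs and 48 of 57 chromosome 4 pairs lie below the line, and the U cluster at 4.21 and 2.21 lies farthest from it.

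On chromosome 4 the clusters were spread along the sequence between free stretches at both ends. The first cluster began at 62598 in replicate 1 and 62654 in replicate 2, and the last ended 51.6 kb and 52.0 kb before the last base. In 100-kb windows counted from that base, cover was lowest in the terminal window, at 3.46% and 1.57%, and highest in the window 551858 to 651857, at 23.0% and 21.9%. Even that window stayed below the arm averages of 26.8% and 29.5%. The longest stretch without a cluster was 72.1 kb (734537 to 806599) in replicate 1 and 71.4 kb in replicate 2. The highest score belonged to 4 86186 to 88766, of 2581 bp, which scored 2.21 in replicate 1 and 1.93 in replicate 2. With 2.08 in the whole-series list it ranked 18 there. The next were 4 678766 to 682094 with 1.84 and 1.73 in the replicates and 4 333022 to 337106 with 1.66 and 1.33. The longest was 4 572182 to 580458, of 8277 bp, split into 2 clusters in replicate 1 and 1 cluster in replicate 2. It was followed by 4 1048624 to 1054662 of 6039 bp and 4 850186 to 855600 of 5415 bp. The region that the whole-series list names as depleted, 4 106840 to 108430 with a score of -0.06, is not a member. At the same place replicate 1 held a cluster, 4 106814 to 108307, whose score of 0.101 was the lowest of replicate 1 on chromosome 4, and replicate 2 held none. The next clusters of the whole-series list ended at 93406 and began at 110410.

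The highest scores on the scaffolds were on 3LHet and 2LHet, in clusters far from any other. On 3LHet, 458690 to 461584 scored 2.12 in replicate 1 and 1.96 in replicate 2, and 409638 to 412526 scored 2.00 and 1.71. They lay 46.2 kb apart and ranked 20 and 56 in the whole-series list. On 2LHet, 166528 to 170012 scored 1.87 and 1.58, with 84.6 kb to the nearest cluster. The top cluster of 2RHet was 390122 to 393330 (1.62 and 1.46) and that of 3RHet 1822404 to 1824840 (1.84 and 1.43), with 51.3 kb and 13.0 kb to the nearest cluster. On XHet it was 59588 to 63064 (1.55 and 1.39), with 4.34 kb to the nearest. Only the top cluster of YHet, 304502 to 306580, scored higher in replicate 2, with 0.762 in replicate 1 and 0.956 in replicate 2. All 6 were found in both replicates. The longest scaffold clusters were 3LHet 204046 to 210622 of 6577 bp, XHet 73932 to 79068 of 5137 bp and 2RHet 197878 to 201990 of 4113 bp, all in both replicates.

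U held the cluster with the highest score of the whole-series list, 7530986 to 7533132 of 2147 bp. It scored 4.21 in replicate 1 and 2.21 in replicate 2, a difference of -2.00 and the largest among the one-to-one pairs of the 5 classes. The next on U were 6383910 to 6386244 with 2.06 and 1.83 and 5540974 to 5543126 with 1.74 and 1.64. The longest, 1241766 to 1244712 of 2947 bp, was found in replicate 1 only. It was followed by 3442372 to 3444872 of 2501 bp, whose score of 1.57 in replicate 1 stood against 0.810 in replicate 2, and by 1101636 to 1104068 of 2433 bp.

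The position of the drop in cover at the end of 2L and 3L was taken as the split of 10-kb bins over the last 4 Mb that left the smallest squared deviation from the means on both sides. On 2L the drop lay at 21281545, 1.73 Mb from the end, in all 3 lists. Proximal of it clusters covered 6.19% (replicate 1) and 6.62% (replicate 2) of the sequence, against 30.8% and 34.7% distal of it. The split accounted for 24.6% of the squared deviation of the bins, so that cover varied much on either side. Low windows also lay distal of the drop. The 100-kb window 20111545 to 20211544 had 1.845% and 2.79% covered, and the next, up to 20311544, had 2.53% and 9.32%. In 100-kb windows the fall began distal of the drop. Cover was 49.5% and 47.4% from 1900 to 2000 kb before the end and 32.2% and 31.8% from 1800 to 1900 kb. It was 27.6% and 28.2% from 1700 to 1800 kb before the end and 9.94% and 10.6% in the next window, and the one after held no cluster in either replicate. This last window lies in a stretch without clusters from 21384898 to 21572498 in replicate 1, of 187.6 kb, and of 188.7 kb in replicate 2. Proximal of it cover returned to 20.2% and 21.5% in the window 1300 to 1400 kb before the end. It then thinned out, with 500-kb windows at 8.52% and 9.89%, 6.78% and 7.29%, and 3.30% and 2.78% towards the end.

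On 3L the drop lay at 22973558, 1.57 Mb from the end, in each replicate and at 23003558 in the whole-series list. It was the deeper of both, with 2.82% and 2.21% covered proximal of it, against 32.4% and 37.0% distal of it. A denser stretch preceded it. Clusters took up 57.9% (replicate 1) and 63.3% (replicate 2) of the 500-kb window 22043558 to 22543557, and 22.4% and 27.9% of the next, which holds the drop. The 3 windows after it had 4.12% and 3.14%, 1.81% and 1.62%, and 2.02% and 1.22%. Far distal of the drop, the 100-kb window 20543558 to 20643557 also held no cluster in either replicate. Between the limit of the last 2 Mb and the drop, cover was 25.02% and 31.4%, near the average of the large autosome arms. A fit with 3 segments, chosen after seeing the data, placed its proximal step at 22533558 in both replicates, where the dense stretch ended, with 8.14% covered proximal of it, against 68.0% in the dense stretch for the mean of the replicates. In the whole-series list that step lay at 22973558. On 2L the same fit gave 21171545 in replicate 1 and for the mean of the replicates and 21041545 in replicate 2, while the whole-series list gave 21281545.

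**Figure D5:**
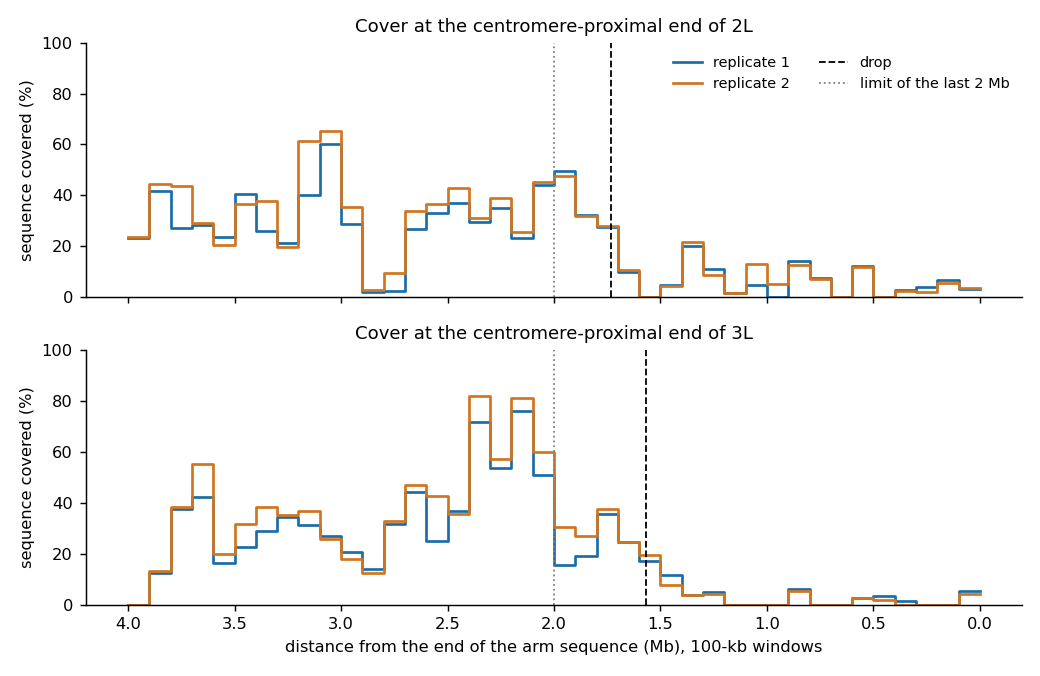
Sequence covered by clusters (percent) in 100-kb windows over the last 4 Mb of 2L (top) and 3L (bottom), by distance from the end of the arm sequence (Mb), in replicate 1 and replicate 2. The dashed line marks the drop, 1.73 Mb from the end of 2L and 1.57 Mb from that of 3L, and the dotted line the limit of the last 2 Mb.

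Clusters on the centromere side of each drop had other properties than those between the drop and the limit of the last 2 Mb. On 3L the 16 proximal clusters of replicate 1 and 13 of replicate 2 had median scores of 1.26 and 1.29, against 0.613 (38 clusters) and 0.637 (45 clusters) distally. Scores of at least 1 belonged to 9 and 8 of the proximal clusters, against 8 and 6 of the distal ones. The median gap was 42.8 kb and 50.5 kb, against 4.92 kb and 3.92 kb. Median lengths on 3L were 2675.5 bp and 2597 bp against 2358 bp and 2520 bp. From 500 to 1000 kb before the end of 3L the median score was 1.76 and 1.33 (3 clusters each), and from 1000 to 1500 kb it was 1.54 and 1.46 (6 and 5 clusters). The last 500 kb, with 5 and 3 clusters, had medians of 0.406 and 0.432 but also held a cluster with 2.06 and 1.69. In the whole-series list the median scores were closer, at 0.561 proximal of the drop, against 0.433 distal of it. On 2L the contrast in score was smaller, with medians of 0.943 and 0.780 for 37 and 43 proximal clusters, against 0.810 and 0.694 for 23 and 24 distal clusters. The contrast in score turned in the whole-series list, with 0.580 proximally, against 0.611 distally. The median gap on 2L was 20.4 kb and 20.3 kb proximally, against 5.59 kb and 2.59 kb distally. Clusters on 2L were shorter proximal of the drop, with a median length of 2697 (replicate 1) and 2565 bp (replicate 2), against 3597 and 3786 bp distal of it. In the last 1 Mb of 2L the median score was 1.34 and 1.24 in the last 500 kb (6 and 5 clusters) and 1.41 and 0.875 in the 500 kb before it (11 and 14 clusters). From 1000 to 1500 kb before the end it was 0.804 and 0.600. Since the drops were placed on cover, the gaps are a description of that choice. Cover also depends on cluster length, and score went with length, so the contrasts in length and score are not independent of that choice either.

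The last clusters before the sequence ends were found in both replicates. On 3L, 24529550 to 24532202 scored 2.06 in replicate 1 and 1.69 in replicate 2 and followed a gap of 303.8 kb in replicate 1 and 461.1 kb in replicate 2. The very last cluster of 3L ended 7.00 kb and 7.15 kb before the end of the sequence, and that of 2L 49.5 kb and 48.8 kb before it. The cluster 23141318 to 23144450, 20.6 kb from its nearest neighbour, had 2.01 and 1.96, the top score at the end of 3L in 2 lists but not in replicate 1, and 23730144 to 23732700 had 1.77 and 1.65. At the end of 2L the highest scores among supported members were those of 22426702 to 22432908, with 1.94 and 1.71, and 22441540 to 22444610, with 1.85 and 1.70. They lay 8.63 kb apart, between gaps of 175.1 kb and, past the next cluster, 214.7 kb in replicate 1. The longest members lay distal of the drops instead. They were 2L 21023344 to 21042098 of 18755 bp, 2L 21101236 to 21109570 of 8335 bp and 2L 21112758 to 21120626 of 7869 bp. On 3L they were 22821852 to 22833226 of 11375 bp, 22741832 to 22751976 of 10145 bp and 22952920 to 22961572 of 8653 bp.

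The positional limits were set by distance alone. On 2L the first member of the whole-series list inside the limit started at 21023344 with a score of 1.12, and the last cluster outside it started at 21009790, measured 11061 bp and scored 0.764. On 3L the first member inside started at 22556444 with a score of 0.393, and the last outside at 22543374 with 0.370. In the replicates the limit on 3L fell between clusters, from 22536542 to 22557688 in replicate 1 and from 22536581 to 22557520 in replicate 2.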

How the data were processed

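H3K9ac ChIP-seq was made from head nuclei, with 2 ChIP and 2 input libraries. The submitters' processing notes name Bowtie 0.12.7, a read aligner. The authors deposited 3 lists of enriched regions, 1 per ChIP replicate and 1 for the whole series, each region with a score, in FlyBase release 5 coordinates per the file headers. No source used here gives the cluster caller, the scale of the score, the read depth or the way the replicates were joined.

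Lists were read as deposited. Whether the replicates are separate fly collections is not labelled, so their spread may be technical. Values are given per replicate with the SD (n = 2), and no p-value was computed, since no condition was compared and clusters are not replicates. Covered shares use the header lengths. The members and measures were chosen with earlier results of these data known. Named clusters are the 3 highest-scoring and the 3 longest of each class, the top cluster of each scaffold, the top unsupported cluster of each class, and those next to the limits. The depleted region, the replicate 1 cluster at it and the last clusters of the arms were added after their values were seen. Alternatives covered the list used, a score filter, merging, overlap, windows and bins. The split was also run on simulated drops, with bins drawn independently of their neighbours, and not every set position was recovered closely. These drops lack the dense and empty stretches of the real arms, so they give no error for the positions found. Intervals came from scipy 1.17.1 and figures from matplotlib 3.10.9, under Python 3.11.15 with pandas 2.3.3 and numpy 2.4.6.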

Additional observations from a re-analysis of the deposited data

How the results depend on the processing

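Leaving out either replicate leaves the value of the other, which with 2 replicates lies within 1 SD of their mean by construction and so says nothing of stability. The whole-series list raised cover to 15.4% on chromosome 4, 1.46% on the Het scaffolds, 0.360% on U, 13.1% at the end of 2L and 10.9% at the end of 3L. Relative to the large autosome arms it gave 0.0391 on the scaffolds, 0.348 on 2L and 0.291 on 3L. It gave 56.96, 5.60, 1.79, 39.5 and 35.5 clusters per Mb in the same order of the 5 classes. Median lengths became 2529 bp on 2L and 2653 bp on 3L, and median gaps 74.4 kb on the scaffolds, 7.87 kb on 2L and 4.33 kb on 3L. The score differences to the arms became 0.23 on chromosome 4, 0.44 on U and -0.0272 on 3L. On 3L the mean of the replicates was 0.00695, so that its end, as a whole class, has no fixed direction in score. Its median scores proximal of the drop were 1.26 (replicate 1), 1.29 (replicate 2) and 0.561 (whole-series list). Those of the arms were 0.670, 0.642 and 0.461. Distal of the drop, where most clusters of the class lay, they were 0.613, 0.637 and 0.433. These lay below the arms in replicate 1 and the whole-series list and were close to them in replicate 2. In the upper 50% by score, relative cover was 0.0595 on the scaffolds, 0.0142 on U, 0.442 on 2L and 0.278 on 3L, and support by both replicates was 100% on chromosome 4, 95.1% on the scaffolds, 97.7% on 2L and 96.7% on 3L. Merging clusters less than 500 bp apart gave 47.0 clusters per Mb on chromosome 4 and 26.0 on 3L, median gaps of 13.6 kb on chromosome 4, 87.9 kb on the scaffolds, 11.03 kb on 2L and 7.79 kb on 3L, and a median length of 2733 bp on 3L. Windows of 1 Mb and 3 Mb gave covers of 5.04% and 16.6% on 2L and 1.67% and 20.3% on 3L. With bins of 50 kb the drops lay at 21311545 and 22993558, the whole-series list put that of 3L at 23003558, and 3 segments, added after seeing the data, gave 21171545 and 22533558. Among clusters at least 20 kb from others, in an alternative also added after seeing the data, the score difference was 0.34 on chromosome 4, 0.50 on U, 0.68 on 2L and 0.70 on 3L, and among clusters of 2000 to under 3500 bp it was 0.0468 on 3L. The cause of these moves was not tested. Of 91 alternative values, those without a replicate left aside, 41 stayed within 1 SD or within the interval and 50 moved. No paired analysis was possible because the inputs have no values of their own here and no test was made between ChIP and input. With the depth unknown, clusters missing from a class may have been below detection, and counts of 11 to 18 on U give wide intervals.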
